A study of Mus musculus with 4 samples.

Results

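Iron storage and transport were followed through 8 genes, *Trf*, *Tfrc*, *Fth1*, *Ftl1*, *Slc40a1*, *Slc11a2*, *Aco1* and *Ireb2*, among the 31053 gene rows of a single-nucleus RNA sequencing (snRNA-seq) series of the mouse brain. They were chosen by gene symbol for their role in iron handling, and all 8 were found in each of the 4 libraries. The libraries came from female C57/BL6 mice aged 2 months that had received no treatment, 2 WT and 2 *Csf1r*+/-, with 1 mouse per library. The study's remaining library of each genotype was not analysed here. *Csf1r* encodes the receptor for CSF-1, on which microglia depend, and the *Csf1r*+/- mice were heterozygous in every cell and not in microglia alone. Brains were perfused before nuclei were isolated without detergent, and myelin debris was taken out with magnetic beads. These steps are meant to deplete blood, cytoplasm and myelin, and how far they did so was not measured. Genes of red blood cells and of mitochondria, given below, were still counted and differed between libraries.

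Iron reaches cells bound to transferrin, the product of *Trf*, which docks on the transferrin receptor encoded by *Tfrc* and is taken into endosomes, from which the transporter DMT1 (*Slc11a2*) moves the metal into the cytosol. Iron that is not used is stored inside ferritin, a shell of heavy chains (*Fth1*), which oxidize the metal, and light chains (*Ftl1*), and it leaves the cell through ferroportin (*Slc40a1*), the known cellular iron exporter. The iron regulatory proteins IRP1 (*Aco1*, which doubles as cytosolic aconitase) and IRP2 (*Ireb2*) bind hairpins called iron-responsive elements when iron is scarce. Bound in the 5′ UTR, they block translation of ferritin and ferroportin messages. Bound in the 3′ UTR, they protect the *Tfrc* message from decay. In the brain, capillary endothelial cells bring iron across the blood-brain barrier, and oligodendrocytes are rich in iron and transferrin.

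The hairpins are shown because they tie these messages to the iron regulatory proteins. Each is given 5′ to 3′ on the strand of the transcript, from the GENCODE vM21 transcripts (GRCm38, the assembly also called mm10), with its loop in capitals.
*Fth1*, 5′ UTR, chr19:9982732-9982759, plus strand: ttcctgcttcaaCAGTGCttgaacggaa
*Ftl1*, 5′ UTR, chr7:45459780-45459807, minus strand: gtcttgcttcaaCAGTGTttgaacggaa
*Slc40a1*, 5′ UTR, chr1:45925466-45925493, minus strand: caacttcagctaCAGTGTtagctaagtt
*Tfrc*, 3′ UTR, chr16:32631219-32631246, plus strand: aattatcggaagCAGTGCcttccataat
*Tfrc*, 3′ UTR, chr16:32631598-32631625, plus strand: cattatcgggagCAGTGTcttccataat
*Tfrc*, 3′ UTR, chr16:32631663-32631690, plus strand: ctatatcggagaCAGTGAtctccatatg
*Tfrc*, 3′ UTR, chr16:32631710-32631737, plus strand: aattatcgggaaCAGTGTttcccataat

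The search asked for a C, any 5 bases, CAGTGN, and then 5 bases able to pair with the first 5, with G-U pairs allowed, on the transcript strand. Of 21200 genes with a 5′ UTR, 31 (0.146%) held such a match, and of 21849 genes with a 3′ UTR, 144 (0.659%) did. Among the 8 iron genes, the heavy and light ferritin chains and ferroportin matched in the 5′ UTR and the transferrin receptor matched 4 times in the 3′ UTR. *Trf*, *Slc11a2*, *Aco1* and *Ireb2* held no match to these letters. Hairpins with other letters or with unpaired bases in the stem were not searched for, so the lack of a match does not show that a gene has none. A message blocked or released by these proteins can change its protein output without a change in the level that was counted here, since the counts measure RNA in nuclei. The genes lie at chr9:103204001-103230444 (*Trf*), chr16:32608920-32632794 (*Tfrc*), chr19:9980598-9985098 (*Fth1*), chr7:45457944-45459884 (*Ftl1*), chr1:45908068-45926523 (*Slc40a1*), chr15:100387898-100425072 (*Slc11a2*), chr4:40143081-40198338 (*Aco1*) and chr9:54863789-54912530 (*Ireb2*).

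Of 53990 deposited nuclei, 52132 were analysed, those with 500 to 50000 unique molecular identifiers (UMIs, 1 per captured transcript), over 200 genes and a mitochondrial share below 5%. The libraries held 9589 to 16114 kept nuclei each, with medians of 4636 to 7454 UMIs per nucleus. WT replicate 2 stood apart: its median mitochondrial share was 0.703%, against 0.147% to 0.278% in the other 3 libraries. Pairs of libraries shared 33 to 68 cell barcodes, at most 0.465% of the smaller library, and no pair agreed within sampling noise (chi-square per degree of freedom of 34.8 or more). *Csf1r*, the altered gene, was checked first in microglia, where it reached 813 and 858 UMIs per 1000000 class UMIs (CPM, the unit of every level below) in WT and 590 and 558 in *Csf1r*+/- replicates 1 and 2.

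Nuclei were grouped without using the iron genes, and groups were named oligodendrocyte-like, microglia-like, endothelial-like or neuron-like from marker genes, called by the plain names from here on. Oligodendrocytes numbered 2370 nuclei (371, 1216, 452 and 331 in WT replicates 1 and 2 and *Csf1r*+/- replicates 1 and 2), microglia 685 (191, 168, 175 and 151), endothelial cells 413 (210, 63, 66 and 74) and neurons 44523, of which 26247 were excitatory and 7702 inhibitory. The markers that defined each class were present in it: each of the 10 oligodendrocyte genes was detected in 27.5% to 98.2% of oligodendrocytes, each of the 10 microglial genes in 27.3% to 90.8% of microglia, and each of the 10 endothelial genes in 40.0% to 97.8% of endothelial cells. The 8 pan-neuronal genes were each detected in 9.89% to 99.3% of neurons. A further 3906 nuclei (7.49%) were left unnamed, 2898 of them in groups with mostly high doublet scores. Free RNA, meaning RNA from outside the nucleus, was estimated per library from the 8 pan-neuronal genes. The estimate was the median ratio of their levels in a class to those in all nuclei. In WT replicates 1 and 2 and *Csf1r*+/- replicates 1 and 2 it was 33.0%, 21.1%, 14.9% and 20.1% of UMIs in oligodendrocytes. It was 38.5%, 36.8%, 14.3% and 25.3% in microglia and 24.5%, 31.7%, 23.0% and 24.0% in endothelial cells. In each of these classes both WT libraries lay above both *Csf1r*+/- libraries. The genotype contrasts below were made without subtracting it, except where stated. The source of this neuronal RNA was not tested.

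Among the 5 larger classes (oligodendrocytes, microglia, endothelial cells, excitatory and inhibitory neurons), the iron genes had their highest levels in different kinds of cell. Oligodendrocytes held the highest level of the iron carrier gene *Trf*, endothelial cells held the highest levels of the uptake gene *Tfrc*, both ferritin chains and the exporter gene *Slc40a1*, and microglia held the highest level of the regulator gene *Ireb2*. *Slc11a2* and *Aco1* overlapped among all classes. The class at the top did not change for any of the 8 genes when classes were drawn from markers in each nucleus, when nuclei needed at least 1000 UMIs, when free RNA was subtracted or when likely doublets were left out. These levels are described without a test, because the classes of a library come from the same preparation.

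**Figure D1:**
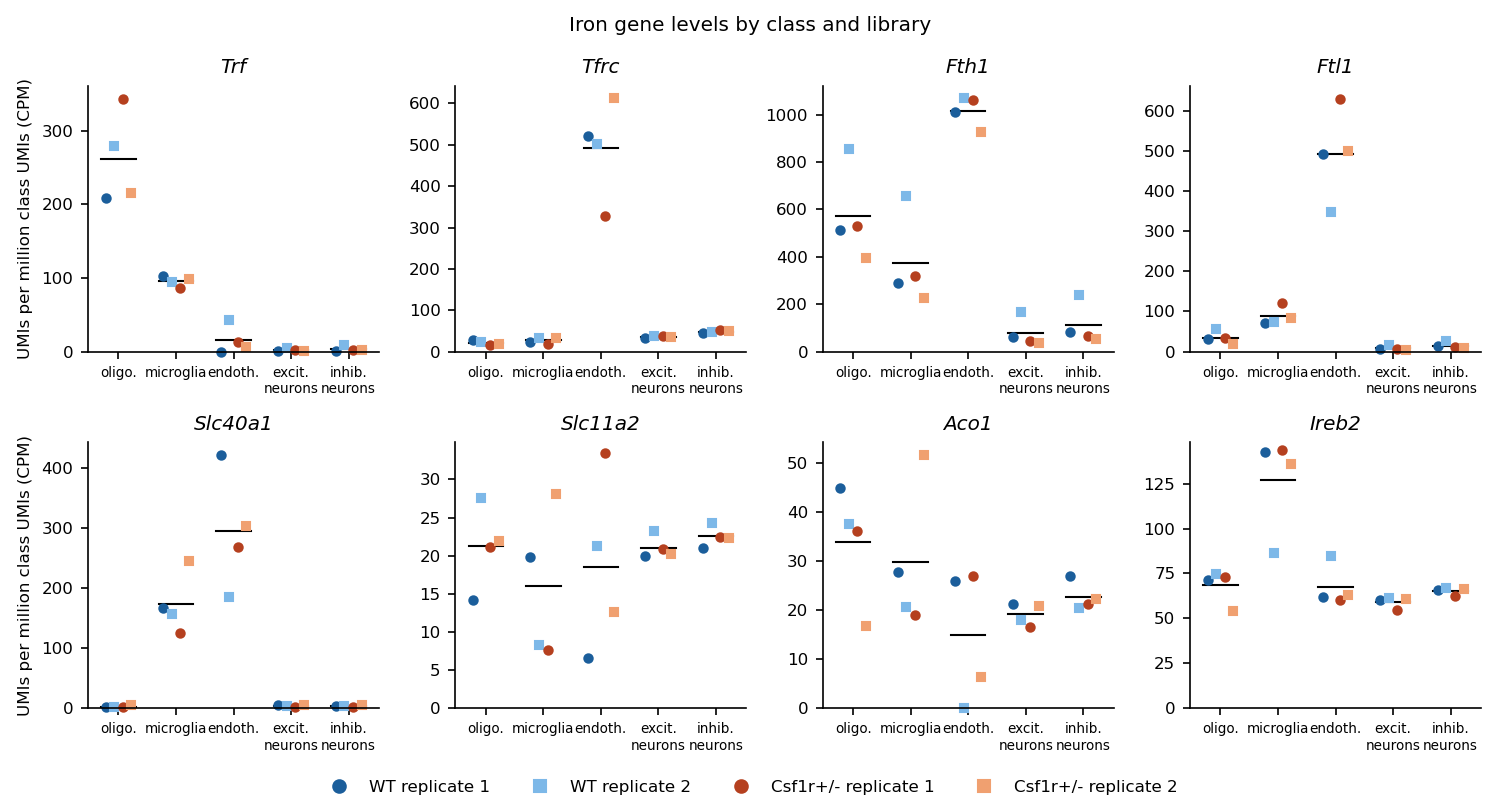
Level of each iron gene (vertical axis, CPM, linear from 0 with its own range in each panel) in 5 classes (horizontal axis), with 1 point per library and a line at the mean of the 4 libraries. *Trf* peaked in oligodendrocytes (mean 261.5), *Tfrc*, *Fth1*, *Ftl1* and *Slc40a1* in endothelial cells (means 491, 1016, 492 and 294) and *Ireb2* in microglia (mean 127), while the classes overlapped for *Slc11a2* and *Aco1*.

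*Trf*, the carrier, stood at 208, 279, 344 and 215 CPM in oligodendrocytes of WT replicates 1 and 2 and *Csf1r*+/- replicates 1 and 2 (mean 261.5 ± 63.5, SD, n = 4). Microglia followed at 103, 94.9, 87.0 and 98.5 CPM, so the mean was 2.73 times higher in oligodendrocytes and the libraries of the classes did not overlap. Endothelial cells had 0 to 42.5 CPM, from 9 UMIs in all, and overlapped with inhibitory (mean 3.71) and excitatory neurons (mean 2.39). Oligodendrocytes held 59.0% of all *Trf* UMIs in named nuclei, although they were 4.55% of the kept nuclei. A *Trf* UMI was seen in 37.8% to 52.0% of oligodendrocytes by library (median depth 1698.5 to 2055 UMIs), against 0.798% to 3.92% of neurons, which were sequenced deeper (4974.5 to 7895). With nuclei thinned to 1000 UMIs, leaving out the 193 oligodendrocytes and 175 neurons with fewer, these shares were 20.8% to 30.8% in oligodendrocytes and 0.192% to 0.873% in neurons.

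*Trf* was also set beside the oligodendrocyte marker genes found in each class. Oligodendrocytes had 2.20, 2.18, 2.44 and 1.75 *Trf* UMIs per 100 UMIs of the 10 oligodendrocyte markers, and neurons had 2.31, 3.93, 1.90 and 2.78. Microglia had 92.9, 13.1, 47.9 and 70, above oligodendrocytes in all 4 libraries. The marker sum in microglia was 111, 722, 182 and 141 CPM by library, with none of the 10 genes at 0 in all libraries, and the microglial ratio was lowest in WT replicate 2, where that sum was highest. The part of free RNA from oligodendrocytes in the microglial *Trf* level was not tested. The microglial values rest on 21 to 26 *Trf* UMIs per library. In endothelial cells, the ratio was 0 in WT replicate 1 and 5.41, 13.3 and 1.92 in the others, from at most 6 *Trf* UMIs.

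**Figure D2:**
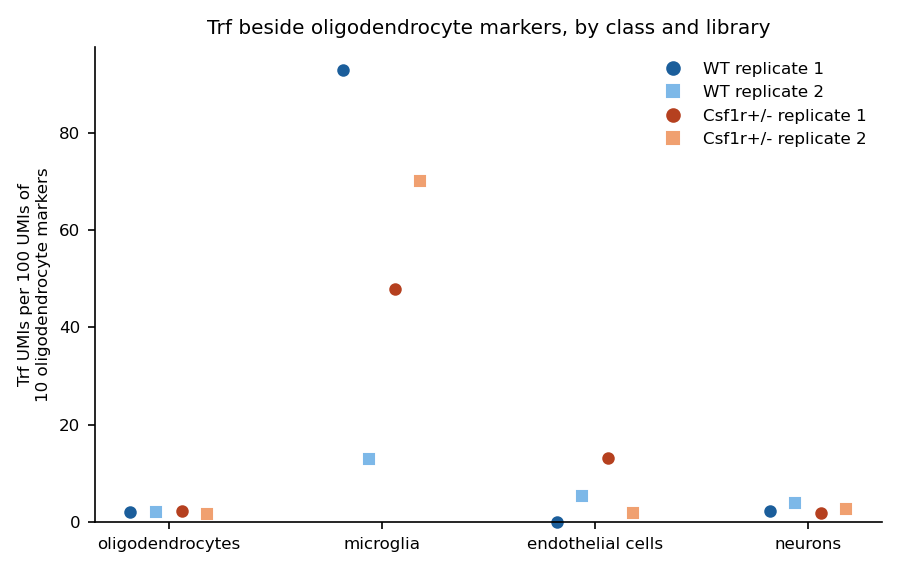
*Trf* UMIs per 100 UMIs of 10 oligodendrocyte marker genes (vertical axis, linear from 0) in 4 classes (horizontal axis), with 1 point per library. Oligodendrocytes and neurons lay between 1.75 and 3.93, and the 4 microglial points lay between 13.1 and 92.9.

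*Tfrc*, the receptor for iron-loaded transferrin, was at 522, 503, 329 and 612 CPM in endothelial cells (mean 491 ± 119, SD, n = 4). The next class was inhibitory neurons at 45.8 to 52.5 CPM, 10.1 times lower in the mean, followed by excitatory neurons at 33.8 to 38.6, and these 3 classes did not overlap. Microglia (18.9 to 33.0 CPM) and oligodendrocytes (16.7 to 27.4) came last and overlapped with each other. A *Tfrc* UMI was seen in 37.9% to 62.2% of endothelial cells (median depth 1243 to 1853 UMIs) and in 3.98% to 6.20% of oligodendrocytes (1698.5 to 2055). Because neurons were so many, they held the larger part of the message, 57.0% of *Tfrc* UMIs lying in excitatory and 14.8% in inhibitory neurons, against 2.68% in endothelial cells. Genes of red blood cells, which also carry the receptor while they mature, summed to 1677 and 429 CPM in endothelial cells of WT replicate 1 and *Csf1r*+/- replicate 1 and to 0 in the other libraries. *Tfrc* was at 503 and 612 CPM in the libraries where they were at 0.

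*Slc11a2*, which moves iron out of the endosome, overlapped between the 5 larger classes: its means ran from 16.0 CPM in microglia to 22.5 in inhibitory neurons, and each overlapped with its neighbours. Mural cells, pooled, had 42.1 (95% interval 15.4 to 91.6) from 6 UMIs. Excitatory neurons had a mean of 21.04 CPM and inhibitory neurons 22.5, while endothelial cells ranged from 6.49 to 33.5 on 12 UMIs in all. *Gm5475*, a gene on the opposite strand that overlaps *Slc11a2*, was counted with 212 UMIs against 8286 for *Slc11a2*. *Gm20425*, on the strand of *Trf*, had 7 UMIs against 3285.

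Ferritin showed the highest levels of the set in endothelial cells. *Fth1*, the heavy chain, was at 1009, 1069, 1060 and 928 CPM there (mean 1016 ± 64.6, SD, n = 4), above every library of every other class. Oligodendrocytes had 514, 856, 531 and 394 CPM and microglia 289, 656, 318 and 225, and the ranges of these classes overlapped. Inhibitory neurons (54.6 to 239.6 CPM) overlapped with microglia, and excitatory neurons (36.1 to 168.8) with inhibitory neurons. Within each of the 4 libraries the order was the same, from endothelial cells through oligodendrocytes, microglia and inhibitory neurons to excitatory neurons. WT replicate 2 was the highest library in each of the last 4 classes. Among the small groups, pooled over libraries with exact Poisson intervals for counting error only, astrocytes stood at 676 CPM (95% interval 543 to 832, 68 nuclei), oligodendrocyte precursors at 257 (215 to 305, 130 nuclei) and mural cells at 231 (159 to 325, 37 nuclei). The 710 nuclei left unnamed for few UMIs had 1150 (1060 to 1240).

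*Ftl1*, the light chain, followed another order. Endothelial cells had 493, 347, 631 and 499 CPM (mean 492 ± 116, SD, n = 4), 5.61 times the mean of microglia, which had 71.4, 74.2, 121 and 84.5. Oligodendrocytes had 18.02 to 57.2 CPM, below microglia and overlapping with inhibitory neurons (7.79 to 25.9). So in all 4 libraries microglia were below oligodendrocytes in *Fth1* and above them in *Ftl1*. A *Ftl1* UMI was seen in 43.3% to 66.7% of endothelial cells, 9.42% to 11.4% of microglia and 4.23% to 10.4% of oligodendrocytes. 

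*Ftl1* shares most of its sequence with *Ftl1-ps1* (chr13:74399694-74407346), a copy that was counted as a gene of its own, and reads that fit either gene can have been lost or split. *Ftl1-ps1* had 2546 UMIs over all nuclei, of which 2248 were in neurons, 10 in oligodendrocytes, 4 in endothelial cells and 0 in microglia, where a count of 0 allows up to 3.09 CPM. In neurons it was at 6.95, 7.11, 6.68 and 6.09 CPM, beside 8.64, 20.4, 7.84 and 5.27 for *Ftl1* itself. The sum of the pair in neurons was 15.6, 27.6, 14.5 and 11.4 CPM, with WT replicate 2 still the highest. In proportion, adding the counted copy therefore moved *Ftl1* more in neurons than in oligodendrocytes, microglia or endothelial cells. Reads lost from both genes are in neither count, and their number was not measured in any class. *Fthl17a*, a heavy-chain relative, had 66 UMIs and its 5 sister genes had 0.

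*Slc40a1*, the exporter, was at 422, 184, 268 and 303 CPM in endothelial cells (mean 294 ± 98.5, SD, n = 4) and at 167, 157, 125 and 244 in microglia (mean 173 ± 50.6). The ranges overlapped, but within each of the 4 libraries the endothelial level was the higher. Both stood far above excitatory neurons (1.38 to 4.80 CPM), inhibitory neurons (1.66 to 4.88) and oligodendrocytes (0.835 to 3.86, from 8 UMIs in all). The microglial mean was 52.2 times that of excitatory neurons, the next of the 5 larger classes. A *Slc40a1* UMI was seen in 31.7% to 42.4% of endothelial cells and 16.0% to 22.5% of microglia (median depth 1119 to 1431 UMIs), against 0.164% to 0.604% of oligodendrocytes, which were sequenced deeper (1698.5 to 2055). The 5 genes of perivascular macrophages, another ferroportin-expressing cell of the vessel wall, summed to 113 to 223 CPM in microglia, and their part in the microglial level was not tested. All 5 were at 0 in endothelial cells.

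Uptake and export genes were also looked at nucleus by nucleus. *Tfrc* and *Slc40a1* were detected in the same nucleus in 51 of 210, 15 of 63, 15 of 66 and 22 of 74 endothelial nuclei by library. In microglia, this was so in 2 of 191, 5 of 168, 0 of 175 and 2 of 151, and in oligodendrocytes in at most 1 nucleus of a library. Taken alone, *Tfrc* and *Slc40a1* were detected in 47.2% and 38.5% of endothelial nuclei. These shares were 3.5% and 18.5% in microglia and 4.56% and 0.295% in oligodendrocytes. Whether both genes met in a nucleus more often than these shares give was not tested. At least 1 of the 8 genes was detected in 90.9% to 96.8% of endothelial nuclei, 74.0% to 88.7% of oligodendrocytes and 62.3% to 73.2% of microglia.

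The 3 endothelial subgroups found by clustering drew on the libraries in different shares: the subgroup of 125 nuclei held 91, 16, 9 and 9 nuclei of WT replicates 1 and 2 and *Csf1r*+/- replicates 1 and 2, that of 107 nuclei 18, 23, 31 and 35, and that of 181 nuclei 101, 24, 26 and 30. Levels are therefore given as ranges over the 4 libraries. *Fth1* ran from 605 to 894 CPM in the subgroup of 125 nuclei, from 1110 to 1310 in that of 107 and from 536 to 1140 in that of 181. *Tfrc* (289 to 727, 393 to 726 and 187 to 498), *Slc40a1* (224 to 723, 242 to 620 and 86.7 to 308) and *Ftl1* (112 to 434, 432 to 715 and 325 to 559) overlapped among the subgroups, given here in the same order. The 8 mural marker genes summed to 2049, 1692, 2381 and 1812 CPM in endothelial cells by library, with 1 gene at 0 throughout. *Rgs5*, a gene known from pericytes, made up most of this at 1586 to 2187 CPM. The pericyte receptor gene *Pdgfrb* was at 0 to 26.8 and the smooth muscle gene *Acta2* at 0. The part of mural RNA in the endothelial levels was not tested. Mural cells themselves had *Tfrc* at 35.1 CPM (11.4 to 81.8) and *Slc40a1* at 7.01 (0.178 to 39.1).

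The regulators were expressed in every class. *Ireb2* was at 143, 86.6, 144 and 136 CPM in microglia (mean 127), 1.86 times the mean of oligodendrocytes (54.1 to 74.8). Among the 5 larger classes, microglia lay above every library of the others. The gap was narrow in WT replicate 2, with 86.6 CPM from 21 UMIs in microglia and 84.9 CPM from 12 UMIs in endothelial cells. Oligodendrocytes, endothelial cells (60.4 to 84.9) and inhibitory neurons (62.1 to 66.7) overlapped, and excitatory neurons followed at 54.3 to 61.4. Among the 5 larger classes, *Aco1* had its highest mean in oligodendrocytes, 33.8 CPM (16.7 to 44.9), but overlapped with microglia (18.9 to 51.6), inhibitory neurons (20.3 to 27.0), excitatory neurons (16.5 to 21.3) and endothelial cells (0 to 26.8, from 13 UMIs). Pooled over libraries, astrocytes had 45.6 CPM (95% interval 16.7 to 99.2) and mural cells 42.1 (15.4 to 91.6), from 6 UMIs each.

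The genes with the most similar pattern over 5 classes in 4 libraries (20 points) were named by Pearson's r of log2(CPM + 1), among 7513 genes (7514 for *Slc11a2*) with a mean of at least 20 CPM. They were *Tmem63a* (0.976) and *Pdxdc1* (0.941) for *Trf*, *Myo10* (0.984) and *Spock2* (0.982) for *Tfrc*, *Glul* (0.987) and *Dbi* (0.983) for *Fth1*, and *Ddx60* (0.983) and *Lgals9* (0.982) for *Slc40a1*. *Ftl1* was closest to the ribosomal protein genes *Rps27a* and *Rpl13* (0.992 each). *Ireb2* was closest to *C1qa* and *Abca9* (0.917 each), *Aco1* to *Rbbp5* (0.903) and *Pus10* (0.892) and *Slc11a2* only loosely to *Tmed8* (0.758) and *Gm13963* (0.746). The points of a library share its depth and preparation, so these values describe the pattern alone.

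Other genes of iron handling, from lists chosen with earlier results of these data known, showed where the rest of the pathway lay. *Cp*, the ferroxidase that works with ferroportin, had its highest mean in endothelial cells (124 ± 15.8 CPM, SD, n = 4) and 31.9 in microglia, whereas its relative *Heph* was at 1.77 or less in every class. *Lrp1*, a receptor for heme-hemopexin among many ligands, was at 293 ± 36.7 CPM in microglia and 67.8 or less elsewhere, and *Slc22a17*, a lipocalin receptor, ran from 54.4 in endothelial cells to 89.5 in oligodendrocytes. *Fbxl5*, which marks IRP2 for degradation when iron is ample, was highest in oligodendrocytes (227 ± 36.7 CPM) and lowest in endothelial cells (74.9). *Hfe*, the hemochromatosis gene, was at 28.8 in microglia and 13.1 in endothelial cells and below 1 CPM elsewhere.

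Of the ferritin helpers, the iron chaperone gene *Pcbp2* was at 222 ± 37.5 CPM in endothelial cells and 93.1 to 153.5 in the other classes. *Ncoa4*, the receptor that delivers ferritin to lysosomes, was at 72.9 ± 28.7 in endothelial cells, 43.4 in microglia and 13.6 or less in the others. *Alas1*, the first enzyme of heme synthesis, reached 163 ± 48.3 CPM in endothelial cells against 30.6 or less elsewhere. *Hmox2*, the constitutive heme oxygenase, was highest in oligodendrocytes (108 ± 24.4), and the heme exporter gene *Flvcr1* ran from 17.5 to 40.9 CPM.

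The second comparison asked whether heterozygosity for *Csf1r* moved these genes. No iron gene passed the study's threshold of unadjusted p under 0.01 in any class by edgeR's quasi-likelihood test on UMIs summed per library: the count was 0 of 7 tested in oligodendrocytes, 0 of 8 in microglia, 0 of 7 in endothelial cells and 0 of 8 in neurons, in excitatory and in inhibitory neurons. At an unadjusted p under 0.05, the counts were 0, 1, 0, 2, 1 and 2 in that order, where 3.99%, 11.9%, 8.04%, 1.97%, 1.9% and 1.92% of all genes past the detection limit were called. Of the 2 in neurons and the 2 in inhibitory neurons, 1 each was *Ftl1*, which was itself under that limit. By edgeR's likelihood-ratio test, the test the study itself used, 1 iron gene passed 0.01 in neurons, 1 in excitatory and 2 in inhibitory neurons, beside 0.596%, 0.798% and 0.606% of all genes. By DESeq2, 1 passed in excitatory neurons, beside 0.916% of all genes. Of the 3 to 5 iron genes per class past the detection limit, 0 had a Benjamini-Hochberg adjusted p under 0.05 by the quasi-likelihood test. Over all genes past the detection limit, the share at an unadjusted p under 0.01 by the quasi-likelihood test was 0.255% in oligodendrocytes, 5.22% in microglia, 2.85% in endothelial cells, 0.185% in neurons, 0.327% in excitatory and 0.121% in inhibitory neurons. The median log2 fold change of the iron genes was −0.56 in oligodendrocytes, 0.12 in microglia, −0.17 in endothelial cells and −0.08 in neurons, against −0.002, 0.005, 0.016 and 0.0 over all genes tested.

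**Figure D3:**
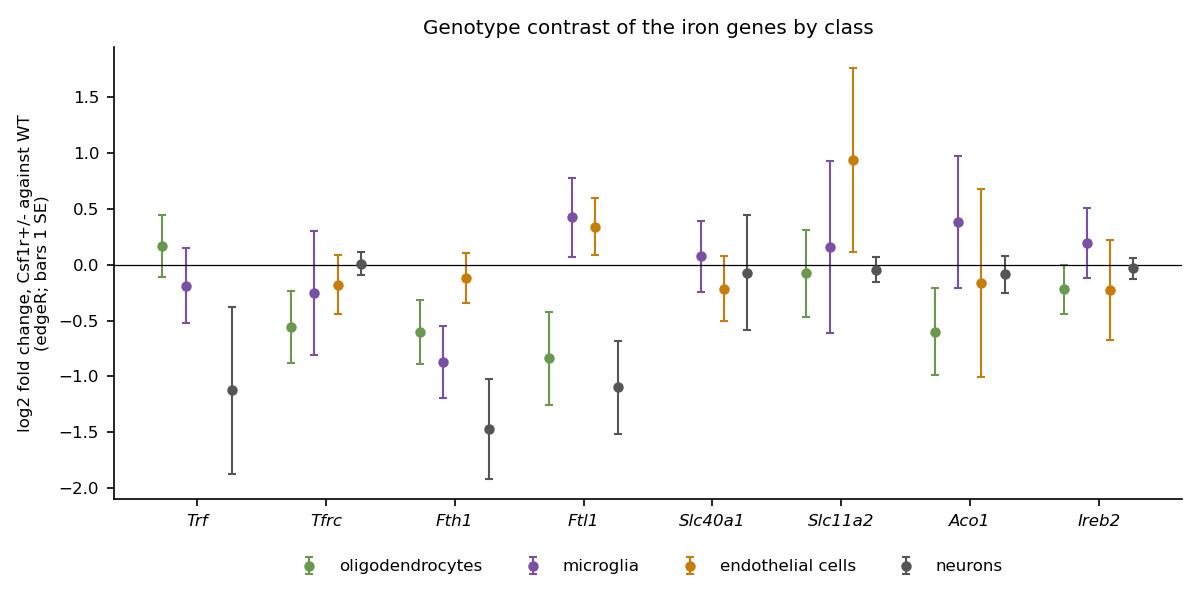
Log2 fold change of each iron gene, *Csf1r*+/- against WT (vertical axis), in 4 classes (colors), from edgeR with 2 libraries per genotype. Bars are 1 SE. The point farthest from 0 is *Fth1* in neurons (−1.47), followed by *Trf* (−1.13) and *Ftl1* (−1.10) in neurons, while *Tfrc*, *Slc11a2*, *Aco1* and *Ireb2* in neurons lie between −0.09 and 0.01.

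Ferritin gave the largest differences. *Fth1* in neurons was at 70.3 and 195 CPM in WT replicates 1 and 2 and at 50.9 and 41.7 in *Csf1r*+/- replicates 1 and 2. Both *Csf1r*+/- libraries lay below both WT libraries, as they did for 19.9% of all genes tested in neurons, and the distance between the WT libraries was larger than that between WT replicate 1 and the *Csf1r*+/- libraries. The log2 fold change was −1.47 (SE 0.447, adjusted p = 1.0), and it was −0.60 without WT replicate 2 (adjusted p = 0.999) and −2.0 without WT replicate 1 (adjusted p = 0.065), where the lone WT sample is assumed to vary like the other group. Excitatory (−1.48, SE 0.433) and inhibitory neurons (−1.41, SE 0.447) gave the same direction and did not pass 0.01 either. In excitatory neurons, DESeq2 gave an adjusted p of 0.0495, and leaving out WT replicate 1 gave one of 0.0335 there and of 0.00577 in inhibitory neurons by edgeR.

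In microglia, *Fth1* was at 289, 656, 318 and 225 CPM by library, with WT replicate 1 inside the range of the *Csf1r*+/- libraries. Its log2 fold change was −0.87 (SE 0.325, adjusted p = 0.266). The value was −0.19 without WT replicate 2, −1.31 without WT replicate 1 and −1.13 without *Csf1r*+/- replicate 1. Each fit with a library left out has a lone sample in 1 genotype, whose spread cannot be measured. In oligodendrocytes the libraries overlapped as well (514, 856, 531 and 394 CPM, log2 fold change −0.60, SE 0.287, adjusted p = 0.993). The value there was −0.18 without WT replicate 2 and −0.89 without WT replicate 1. In endothelial cells *Fth1* was at 1009, 1069, 1060 and 928 CPM, with WT replicate 2 again the highest library. The contrast there was −0.12 (SE 0.225, adjusted p = 0.966).

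*Ftl1* in neurons was at 8.64 and 20.4 CPM in WT and 7.84 and 5.27 in *Csf1r*+/- (log2 fold change −1.10, SE 0.418), and the value was −0.39 without WT replicate 2 and −1.57 without WT replicate 1. *Ftl1* was under the detection limit there and in oligodendrocytes, so it has no adjusted p. In oligodendrocytes it was at 30.6, 57.2, 32.6 and 18.02 (−0.84, SE 0.413). The value was −0.25 without WT replicate 2 and −1.12 without WT replicate 1, each with a lone WT sample. In microglia and endothelial cells the sign was the opposite. Microglia had 71.4 and 74.2 CPM in WT and 121 and 84.5 in *Csf1r*+/- (0.42, SE 0.356, adjusted p = 0.721). These microglial levels rest on 18 and 18 UMIs in WT and on 32 and 18 in *Csf1r*+/- replicates 1 and 2. Only *Csf1r*+/- replicate 1 thus differed in count. Endothelial cells had 493 and 347 in WT against 631 and 499 in *Csf1r*+/- (0.34, SE 0.253, adjusted p = 0.833). The *Csf1r*+/- libraries were above the WT libraries in both classes, as were those of 27.8% of all genes tested in microglia and 21.9% in endothelial cells, and neither difference passed the test. The endothelial value was 0.69 without WT replicate 1 and 0.13 without *Csf1r*+/- replicate 1.

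**Figure D4:**
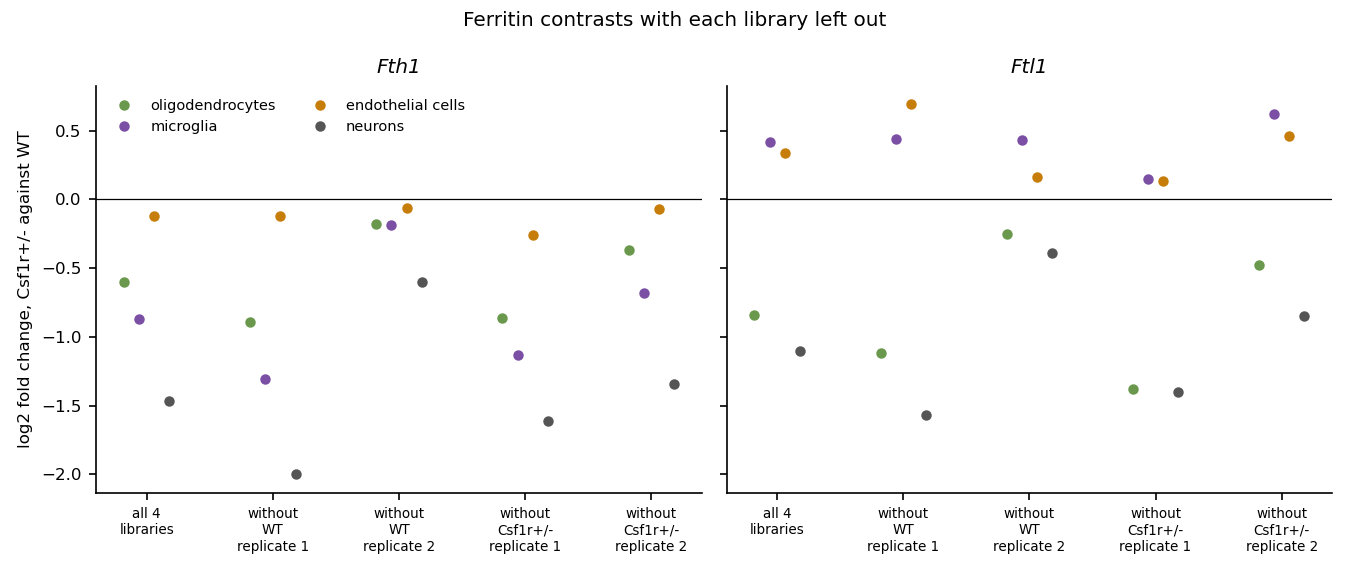
Log2 fold change of *Fth1* (left) and *Ftl1* (right), *Csf1r*+/- against WT (vertical axis), in 4 classes with all 4 libraries and with each left out in turn (horizontal axis). Without WT replicate 2, *Fth1* moved from −1.47 to −0.60 in neurons, from −0.87 to −0.19 in microglia and from −0.60 to −0.18 in oligodendrocytes.

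Other measures moved with WT replicate 2 in neurons. Summed over 101 ribosomal protein genes, neurons had 2002, 3514, 1954 and 1793 CPM by library, and 10 abundant cytoplasmic transcripts summed to 447, 808, 442 and 378 CPM. Mitochondrial genes summed to 1655, 5904, 2578 and 1524 CPM, the 3 metallothionein genes, which encode small metal-binding proteins, to 34.1, 103, 23.5 and 19.7, and the 10 oligodendrocyte markers to 51.6, 168, 95.2 and 57.0. WT replicate 2 was the highest library in each case, as for *Fth1*, *Ftl1* and *Trf*, and the part of these measures in the ferritin values was not tested. In oligodendrocytes it was also the highest for ribosomal (3041, 6453, 2918 and 2386 CPM), mitochondrial (4404, 15330, 6978 and 3753), metallothionein (86.5, 295, 74.9 and 48.9) and cytoplasmic sums (891, 1674, 823 and 708). In microglia it was the highest for ribosomal (7541, 11300, 9426 and 6813) and mitochondrial genes (15230, 23250, 21010 and 16070), but the lowest for cytoplasmic transcripts (10670, 8512, 14100 and 9342). In endothelial cells, WT replicate 2 was the highest library for mitochondrial genes (27910, 31650, 31000 and 27970 CPM) and oligodendrocyte markers (64.9, 785.7, 100.6 and 328.3), the lowest for ribosomal (28080, 27530, 31250 and 31540) and cytoplasmic transcripts (12750, 11980, 14630 and 14110), and between the others for metallothioneins (632, 467, 577 and 379).

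The ferritin difference was spread over the neuronal clusters. *Fth1* could be tested in 28 of them, and its log2 fold change was negative in all 28, from −2.20 to −0.83 (median −1.43). The *Csf1r*+/- libraries lay below the WT libraries in 25 of the 28, against 15.7% of all gene and cluster pairs tested. The unadjusted p was under 0.01 in 14, against 0.583% of all pairs, and the adjusted p was under 0.05 in 1. The clusters come from the same 4 libraries and are no replicates of each other: WT replicate 2 was the highest library in all 28. Without it, the median log2 fold change was −0.59 and the values ran from −1.52 to 0.02. Without WT replicate 1, the median was −1.96 and the values ran from −3.04 to −1.275.

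**Figure D5:**
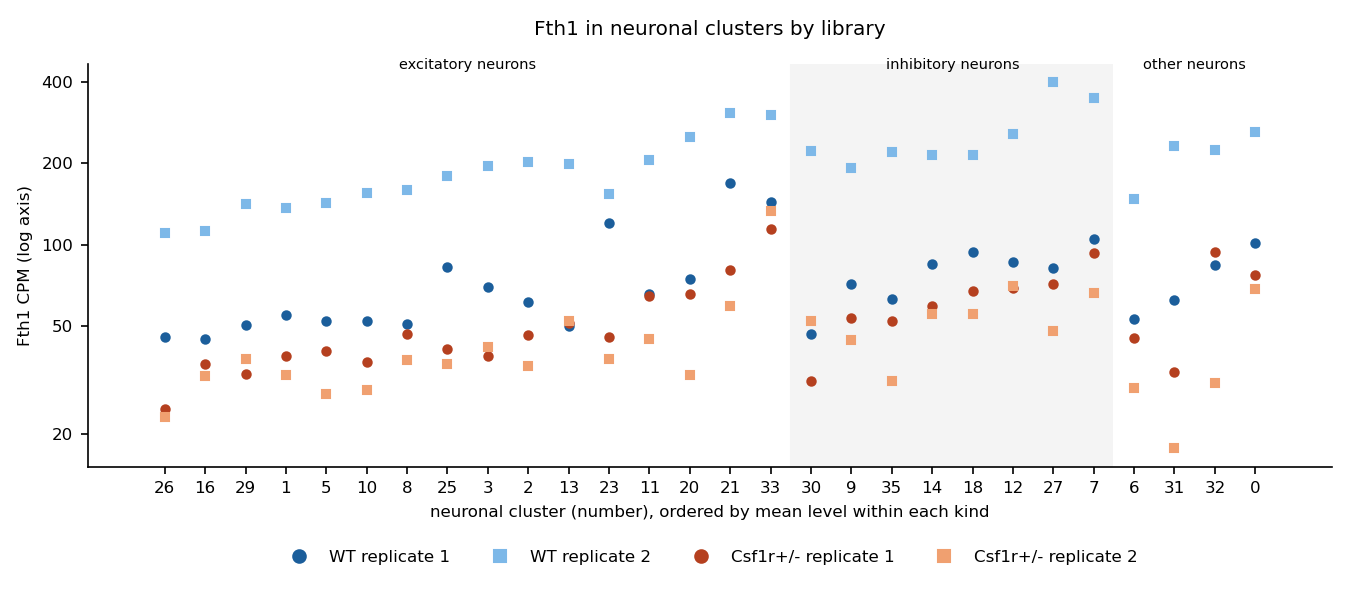
*Fth1* level (vertical axis, CPM, log scale) in 28 neuronal clusters (horizontal axis, ordered by mean level within excitatory, inhibitory and other neurons), with 1 point per library. WT replicate 2 is the highest point in all 28 clusters, and cluster means run from 50.9 to 172.9 CPM.

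The level of *Fth1* itself differed between kinds of neuron by 3.40-fold in the cluster means, from 50.9 CPM in an excitatory cluster (45.4, 110, 24.8 and 23.0 by library) to 172.9 in another (143, 301, 114 and 133). *Ftl1* was below WT with no overlap in 15 of 27 clusters, against 15.7% of all gene and cluster pairs tested. It was at p under 0.01 by edgeR in 3, against 0.583% of all pairs. Those shares cover pairs past the detection limit, and *Ftl1* was under that limit in most clusters. WT replicate 2 was its highest library in 25 of the 27. The median log2 fold change of *Ftl1* over clusters was −1.07 with all libraries, −0.44 without WT replicate 2 and −1.46 without WT replicate 1. *Tfrc* cluster means ran from 24.3 to 72.5 CPM and *Ireb2* from 51.3 to 78.5, and neither had a cluster at p under 0.01, nor at p under 0.05. *Slc40a1* reached 9.86 CPM in one excitatory cluster, where its libraries were 16.3, 5.46, 2.19 and 15.5, so that each genotype held a high and a low library. *Trf*, *Slc11a2* and *Aco1* had 0 clusters at p under 0.01 and 1, 0 and 0 at p under 0.05.

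Whether the ferritin contrast differed between classes was tested as the class by genotype term of the same model, with the library as a block. The contrast of *Fth1* was higher than in neurons by 1.21 in endothelial cells (SE 0.353, adjusted p = 0.512), by 0.60 in microglia (SE 0.200, adjusted p = 0.190) and by 0.77 in oligodendrocytes (SE 0.260, adjusted p = 0.676). That of *Ftl1* was higher by 1.48 in microglia (SE 0.406) and by 1.34 in endothelial cells (SE 0.402), and by 0.33 in oligodendrocytes (SE 0.282). Of 22 such differences of iron genes, 4 had an unadjusted p under 0.01, those of both ferritin genes in microglia and in endothelial cells, against 1.26% of all genes tested for oligodendrocytes, 5.03% for microglia and 1.74% for endothelial cells, and neither *Fth1* value passed the adjusted threshold, while *Ftl1*, under the detection limit, has no adjusted p. Without WT replicate 2, the differences were 0.59 for endothelial *Fth1* (SE 0.190), which still passed 0.01, and 0.37 for microglial *Fth1* (SE 0.267), 0.78 for microglial *Ftl1* (SE 0.420) and 0.61 for endothelial *Ftl1* (SE 0.317), which did not. The endothelial *Fth1* difference was 1.23 without *Csf1r*+/- replicate 1, 1.16 without *Csf1r*+/- replicate 2 and 1.96 without WT replicate 1. Each fit with a library left out has a lone sample in 1 genotype, whose spread cannot be measured.

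The carrier, uptake and export genes showed no contrast that held up against the spread between libraries. *Trf* in oligodendrocytes was at 208 and 279 CPM in WT and 344 and 215 in *Csf1r*+/- (log2 fold change 0.16, SE 0.277, adjusted p = 0.993), and the sign turned without *Csf1r*+/- replicate 1 (−0.24). In microglia, *Trf* differed by −0.19 (SE 0.334, adjusted p = 0.899). In neurons it was at 1.19, 6.61, 1.81 and 1.59, a value of −1.13 (SE 0.743) that became 0.52 without WT replicate 2.

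*Tfrc* in endothelial cells differed by −0.18 (SE 0.262, adjusted p = 0.963), with *Csf1r*+/- replicates 1 and 2 the lowest and the highest of the 4 libraries, and by 0.16 without *Csf1r*+/- replicate 1. In neurons, where it was at 38.7, 43.2, 41.6 and 38.8 CPM, the difference was 0.01 (SE 0.101, adjusted p = 1.0). In oligodendrocytes *Tfrc* was at 27.4 and 23.4 CPM in WT and 16.7 and 18.02 in *Csf1r*+/-, and *Aco1* at 44.9 and 37.6 against 36.1 and 16.7. Both were below WT with no overlap, as were 11.7% of all genes tested there, and neither passed the test (−0.56, SE 0.321, and −0.60, SE 0.389). The *Aco1* value was −1.34 without *Csf1r*+/- replicate 1 and −0.18 without *Csf1r*+/- replicate 2. In inhibitory neurons *Tfrc* was higher in both *Csf1r*+/- libraries (45.8 and 47.0 against 52.5 and 48.6 CPM, 0.13, SE 0.111, adjusted p = 0.999), as were 10.8% of all genes tested there.

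*Slc40a1* differed by −0.22 in endothelial cells (SE 0.291, adjusted p = 0.963) and by 0.07 in microglia (SE 0.318, adjusted p = 0.971). WT replicates 1 and 2 were the highest and the lowest endothelial libraries, and the value was 0.62 without WT replicate 1 and −0.59 without WT replicate 2. In microglia it was 0.52 without *Csf1r*+/- replicate 1 and −0.48 without *Csf1r*+/- replicate 2. Its 8 UMIs in oligodendrocytes were too few to test. *Slc11a2* differed by −0.04 in neurons (SE 0.114), *Aco1* by −0.09 (SE 0.166) and *Ireb2* by −0.03 (SE 0.094), each with an adjusted p of 1.0. *Ireb2* differed by little against its error in oligodendrocytes (−0.22, SE 0.220, adjusted p = 0.993), microglia (0.19, SE 0.317, adjusted p = 0.889) and endothelial cells (−0.23, SE 0.447, adjusted p = 0.972).

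In the pathway lists, few genes passed. Of the 9 genes of iron uptake and reduction, 4 could be tested in microglia and 1 was higher at an unadjusted p under 0.01, where 5.22% of all genes were called. This was *Slc39a8*, which encodes a zinc transporter that also carries iron and manganese. It was at 7.93 and 4.12 CPM in WT and 26.5 and 42.2 in *Csf1r*+/- (log2 fold change 2.29, SE 0.717). These levels rest on few UMIs, since microglia held 213122 to 264388 UMIs per library. The mean of *Slc39a8* was higher in endothelial cells (87.0 CPM) than in microglia (20.2). In microglia it was below the limit of detection set for all genes and so has no adjusted p. Of 52 genes in 8 lists, 51 were in the files. Among those tested, no gene of iron export (1 to 3 of 3 tested per class), ferritin turnover (3 of 3), iron regulation (2 to 5 of 7), mitochondrial iron (8 to 10 of 11) or heme handling (4 to 6 of 6) passed 0.01 in any of the 6 classes by edgeR's quasi-likelihood test, and at p under 0.05 there were 1 each in mitochondrial iron for endothelial cells, neurons and inhibitory neurons and 1 in heme handling for endothelial cells.

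Of the 3 metallothioneins, which bind zinc and copper, 2 fell in microglia and 1 in inhibitory neurons at an unadjusted p under 0.01 by edgeR. At that threshold, 5.22% of all genes were called in microglia and 0.121% in inhibitory neurons. No metallothionein had an adjusted p under 0.05. *Mt3* in microglia was at 59.5, 202, 41.6 and 23.5 CPM (log2 fold change −2.03, SE 0.556, adjusted p = 0.116) and *Mt1* at 67.4, 173, 52.95 and 4.69 (−2.02, SE 0.615, adjusted p = 0.150), with WT replicate 2 the highest library as for *Fth1*. *Mt1* in inhibitory neurons was at 21.1, 60.5, 13.1 and 9.42 (−1.84, SE 0.481, adjusted p = 0.999). Among the 10 abundant cytoplasmic transcripts, the highest-expressed, *Cst3* and *Tmsb4x*, differed by 0.26 (adjusted p = 0.820) and 0.22 (adjusted p = 0.840) in microglia. Of all 10 in microglia, 6 were negative (median −0.13). In microglia 1 of the 10 was lower at an unadjusted p under 0.01 by edgeR, where 5.22% of all genes were called. In neurons and in oligodendrocytes, all 10 of these transcripts had a negative value (medians −0.62 and −0.95), as did *Fth1* and *Ftl1*. In endothelial cells 7 of the 10 were positive (median 0.15).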

How the data were processed

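The measurements were single-nucleus RNA sequencing (10x Chromium 3′) of 4 mouse brains. The deposited values were UMI counts per gene and nucleus, made by the authors with Cell Ranger 5.0.0 (per the file headers) against mm10 (per the labels). Whether intronic reads were counted is not given in the sources used here.

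Nuclei with 500 to 50000 UMIs, over 200 genes and under 5% mitochondrial UMIs were clustered with scanpy 1.11.5 and leidenalg 0.10.2 in Python 3.11.15 (3000 variable genes, 30 principal components, 20 neighbours, resolution 1), leaving out 908 genes that include the iron genes, their pathway lists and mitochondrial and ribosomal genes. A glial or vascular cluster was named when at least 3 markers of a class were at 2 times their level in all other nuclei and more of that class than of any other were among its 10 leading genes, and a neuronal cluster when it held at least 3 neuronal markers. Doublet scores of Scrublet, as run in scanpy, were used to leave clusters unnamed. UMIs were summed per class and library, and *Csf1r*+/- was compared with WT by edgeR 4.0.16 (quasi-likelihood in place of the study's likelihood-ratio test, TMM, R 4.3.3), for genes with at least 10 counts. Unadjusted p under 0.01 was the threshold, as in the study, and Benjamini-Hochberg values were taken over genes detected in at least 10% of nuclei, so a gene below that limit has a p but no adjusted p. Each library is 1 mouse. The test was checked on simulated data. Class differences were tested in 1 model of both classes with the library as a block.

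The members and lists were chosen with earlier results of these data known. All 8 iron genes were named, with the list genes at p under 0.01 in any class, the 2 of highest mean level in each list, and the 2 genes most alike in pattern to each member. Some results that this rule would name are not reported here. Alternatives were the likelihood-ratio test, DESeq2 1.42.0, other scalings, filters, doublet removal, marker-based classes, free RNA subtraction, a replicate block and leaving out each library. The crossed block, and the left-out libraries for class differences and neuronal clusters, were chosen after seeing the data. Intervals and limits of a count of 0 (3 counts) cover counting error only.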

Additional observations from a re-analysis of the deposited data

Results flagged for a closer look

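In 4 of 22 tests the genotype contrast of a ferritin gene differed between a class and neurons, by edgeR's test of the class by genotype term at an unadjusted p under 0.01. The differences were 1.48 (*Ftl1*) and 0.60 (*Fth1*) on the log2 scale for microglia, and 1.34 (*Ftl1*) and 1.21 (*Fth1*) for endothelial cells. The share of all genes at that threshold was 5.03% for microglia and 1.74% for endothelial cells, no adjusted p of *Fth1* was under 0.05, and *Ftl1* has none. Without WT replicate 2 these became 0.78, 0.37, 0.61 and 0.59, and of the 4 the last, *Fth1* in endothelial cells, still passed 0.01. Without *Csf1r*+/- replicate 1 or 2 none of the 4 passed, and without WT replicate 1 all 4 did. In neurons WT replicate 2 was the highest library for both ferritin genes, for the ribosomal and mitochondrial sums and for oligodendrocyte markers. In microglia it was the highest for *Fth1* and for the same sums and markers. In endothelial cells it was the highest for *Fth1*, the mitochondrial sum and the markers, and the lowest for the ribosomal sum. The part of these measures in the differences was not tested. *Ftl1* in neurons is uncertain because of *Ftl1-ps1*, and *Ftl1* in microglia rests on 18, 18, 32 and 18 UMIs by library.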

How the results depend on the processing

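The class with the highest level held for all 8 iron genes under the 4 alternatives run on levels. Of 657 alternative values of single iron genes in the genotype contrast, 570 kept their direction and side of the threshold, 31 came to pass p under 0.01 and 56 turned sign; except where stated, the cause was not tested. With the likelihood-ratio test the count of iron genes at p under 0.01, 0 in each class, became 1 in neurons, 1 in excitatory and 2 in inhibitory neurons. Without the detection filter it was likewise 1, 1 and 2. The share of all genes called without that filter is not given here, so these counts cannot be weighed against it. The count became 1 in excitatory neurons with DESeq2 and 1 in microglia with free RNA subtracted. With that subtraction, the calls over all genes in microglia went from 159 to 32. With a library left out, 1 genotype holds a lone sample, which is then assumed to vary like the other genotype. The counts of iron genes in those fits are therefore not given by class. The count of class differences, 4, was 2 with marker-based classes and ran from 0 without *Csf1r*+/- replicate 2 to 7 without WT replicate 1.

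Whether the replicate numbers pair the libraries could not be settled, since each genotype had only 2 libraries. Over genes, deviations of same-numbered libraries correlated at −0.317 in oligodendrocytes, −0.143 in microglia, 0.045 in endothelial cells and −0.053 in neurons. With the replicate block, 0 iron genes passed in every class by edgeR, as without it, and *Fth1* in neurons was at −1.31 (adjusted p = 1.0). With the crossed pairing as the block, the counts were 1 in oligodendrocytes, 1 in microglia and 2 in each of the 3 neuronal groups. The share of all genes called in that setting is not given here, so these counts cannot be weighed against it.

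Sign changes outside left-out libraries all concerned values with p above 0.01. With marker-based classes, *Trf*, *Tfrc*, *Slc40a1*, *Slc11a2* and *Ireb2* in microglia became 0.08, 0.41, −0.06, −0.1 and −0.04, and *Tfrc*, *Fth1* and *Aco1* in endothelial cells 0.02, 0.03 and 0.22. With at least 1000 UMIs, *Trf* and *Slc11a2* in microglia became 0.07 and −0.06. Without high doublet scores, *Slc40a1* and *Slc11a2* in microglia became −0.05 and −0.04. With free RNA subtracted, *Tfrc* and *Slc40a1* in microglia became 0.19 and −0.14 and *Slc11a2* in oligodendrocytes 0.07. *Slc11a2* in oligodendrocytes was 0.02 without the detection filter and 0.03 with the replicate block, and in inhibitory neurons 0.01 without the filter. *Aco1* in endothelial cells was 0.17 with DESeq2 and 0.23 with the replicate block. *Tfrc* was −0.03 in neurons and −0.02 in excitatory neurons with library totals alone.

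Leaving out each library gave ranges across 0 for *Trf* in oligodendrocytes (−0.24 to 0.48), neurons (−1.89 to 0.52), excitatory (−1.78 to 0.38) and inhibitory neurons (−1.89 to 0.72). For *Tfrc* they were −0.68 to 0.14 in microglia, −0.74 to 0.16 in endothelial cells, −0.03 to 0.06 in neurons and −0.04 to 0.08 in excitatory neurons. For *Slc40a1* they were −0.48 to 0.52 in microglia, −0.59 to 0.62 in endothelial cells, −1.03 to 0.50 in neurons, −1.35 to 0.45 in excitatory and −0.79 to 0.77 in inhibitory neurons. For *Slc11a2* they were −0.36 to 0.55 in oligodendrocytes, −0.33 to 0.95 in microglia, −0.10 to 0.02 in neurons, −0.10 to 0.03 in excitatory and −0.09 to 0.09 in inhibitory neurons. For *Aco1* they were −0.46 to 1.01 in microglia, −0.69 to 0.50 in endothelial cells, −0.24 to 0.10 in neurons, −0.23 to 0.14 in excitatory and −0.32 to 0.12 in inhibitory neurons. For *Ireb2* they were −0.13 to 0.65 in microglia, −0.12 to 0.05 in neurons, −0.13 to 0.03 in excitatory and −0.10 to 0.01 in inhibitory neurons. Over all genes tested, counts at p under 0.01 ran over the settings from 1 to 287 in oligodendrocytes, 32 to 314 in microglia, 21 to 285 in endothelial cells and 9 to 201 in neurons. Depth limited *Slc11a2* and *Aco1* in microglia and endothelial cells, with at most 11 UMIs per library.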
